A study of Mus musculus with 4 samples.

Results

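The genes described here copy DNA and prepare its copying. They form a set of 49 genes that encode the factors of origin licensing, the replicative helicase and its activators, the replication polymerases, the clamp and its loader, the enzymes that make deoxynucleotides, and regulators of entry into S phase. They were found by an exact match of the gene symbol in a platform annotation table, which gave 47 of the 49 at least 1 probe set of their own, out of 22180 genes tested. Rfc4 and Ccne2 have no probe set that names them alone, and no value is given for either. The cells were 4T1, a mammary carcinoma line of the mouse kept in culture. They carried either a short hairpin RNA against Ldha, the gene of lactate dehydrogenase A (shLDHA, 2 arrays), or a scrambled hairpin (scramble, 2 arrays). The shLDHA cells that took up the hairpin were selected with puromycin at 10 µg/ml and kept as a mixed pool, and the labels name no such selection for the scramble cells, so selection and knockdown cannot be told apart. Both were grown for 24 hours in complete RPMI medium, and 400 ng of total RNA was labelled per array. The labels do not say that the 2 samples of a group were separate cultures, so a p-value reflects the spread of these arrays alone, and that spread may be technical. In bulk RNA, more cells of a cell cycle phase and more RNA per cell cannot be told apart.

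As background, replication begins at origins that are licensed in G1. The origin recognition complex, with Cdc6 and Cdt1, loads the ring-shaped MCM helicase on DNA, and geminin blocks a further round of loading once S phase has begun. The Dbf4-dependent kinase and cyclin-dependent kinases then recruit Cdc45 and the GINS complex, which turns the ring into an active helicase, and the polymerases, the clamp and the nucleases follow at the fork. Many of these genes are transcribed most strongly around the G1 to S transition, where E2F factors are known to act on them, and they are commonly read as part of a proliferation programme in tumour cells.

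Ldha itself read 6.31 and 6.15 on the shLDHA arrays, against 6.69 and 6.96 on the scramble arrays (log2 change -0.59, SE 0.12, limma adjusted p = 0.0390). Its call was lost without shLDHA replicate 1 (adjusted p = 0.0965), shLDHA replicate 2 (0.163) or scramble replicate 2 (0.128). All levels are log2 values made by the authors with RMA, all changes are shLDHA minus scramble, and passing means a limma p, adjusted by Benjamini-Hochberg over all 22180 genes, under 0.05. The array medians over all probe sets lay between 3.87 and 3.90, and arrays of the same group correlated across genes at r = 0.997 in each group, against 0.993 across groups. Of the epithelial markers, 6 were tested, with group means between 3.90 and 10.48. Their summed level was 50.5 to 50.8 in shLDHA and 48.85 to 49.03 in scramble, with Krt8, Epcam and Krt14 past the threshold and higher. The other 3 did not pass, Krt18 at a log2 change of 0.24, Cdh1 at 0.04 and Krt19 at -0.33 (adjusted p = 0.0853). The part of these markers in the results that follow was not tested. All 6 tested leukocyte markers and all 5 endothelial markers read below 4.19, the level under which 95% of 1105 olfactory receptor genes lay. So did 6 of 7 fibroblast markers, Pdgfra being the exception. The scramble mean of the epithelial marker Krt14, 3.90, lay below that level too, and its shLDHA mean was 4.70. The summed level of the leukocyte markers was 17.9 to 18.0 in shLDHA and 17.5 to 18.1 in scramble, that of the fibroblast markers 25.0 to 25.6 and 25.1 to 25.8, and that of the endothelial markers 16.1 to 16.3 and 15.7 to 16.0.

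Replication genes were higher in shLDHA cells, by small steps. The set was chosen with earlier results of these data known. Of the 47 measured, 18 passed and were higher, 0 passed and were lower, and 29 did not pass. Over all genes, 3.37% passed and were higher and 2.99% passed and were lower. Since every one of the 47 lay in the brighter part of the genes, where changes are called more readily, the closer comparison is with genes at or above the median level, of which 6.32% passed and were higher and 5.65% passed and were lower. The rises were between 1.30-fold and 1.71-fold, and 0 of the 47 reached 2-fold. The median log2 change of the 47 was 0.30, against 0.01 over all genes. At an unadjusted limma p under 0.05 there were 33 of the 47 higher and 1 lower, where over all genes 11.3% were higher and 10.2% lower. Of the 11090 genes at or above the median level, 3836 had such a p in either direction. The estimate was positive for 46 of the 47, against 51.7% of all genes and 51.8% of genes at or above the median level. Both shLDHA arrays read above both scramble arrays for 41 of the 47, against 26.2% of all genes and 34.3% of genes at or above the median level. The reverse order held for 1 gene, Orc2, and the arrays overlapped for 5: Orc1, Orc6, Pcna, Ccne1 and E2f1. In single arrays, the median of the 47 stood 0.30 and 0.32 above the scramble mean in the shLDHA samples and 0.01 above and below it in the scramble samples.

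**Figure D1:**
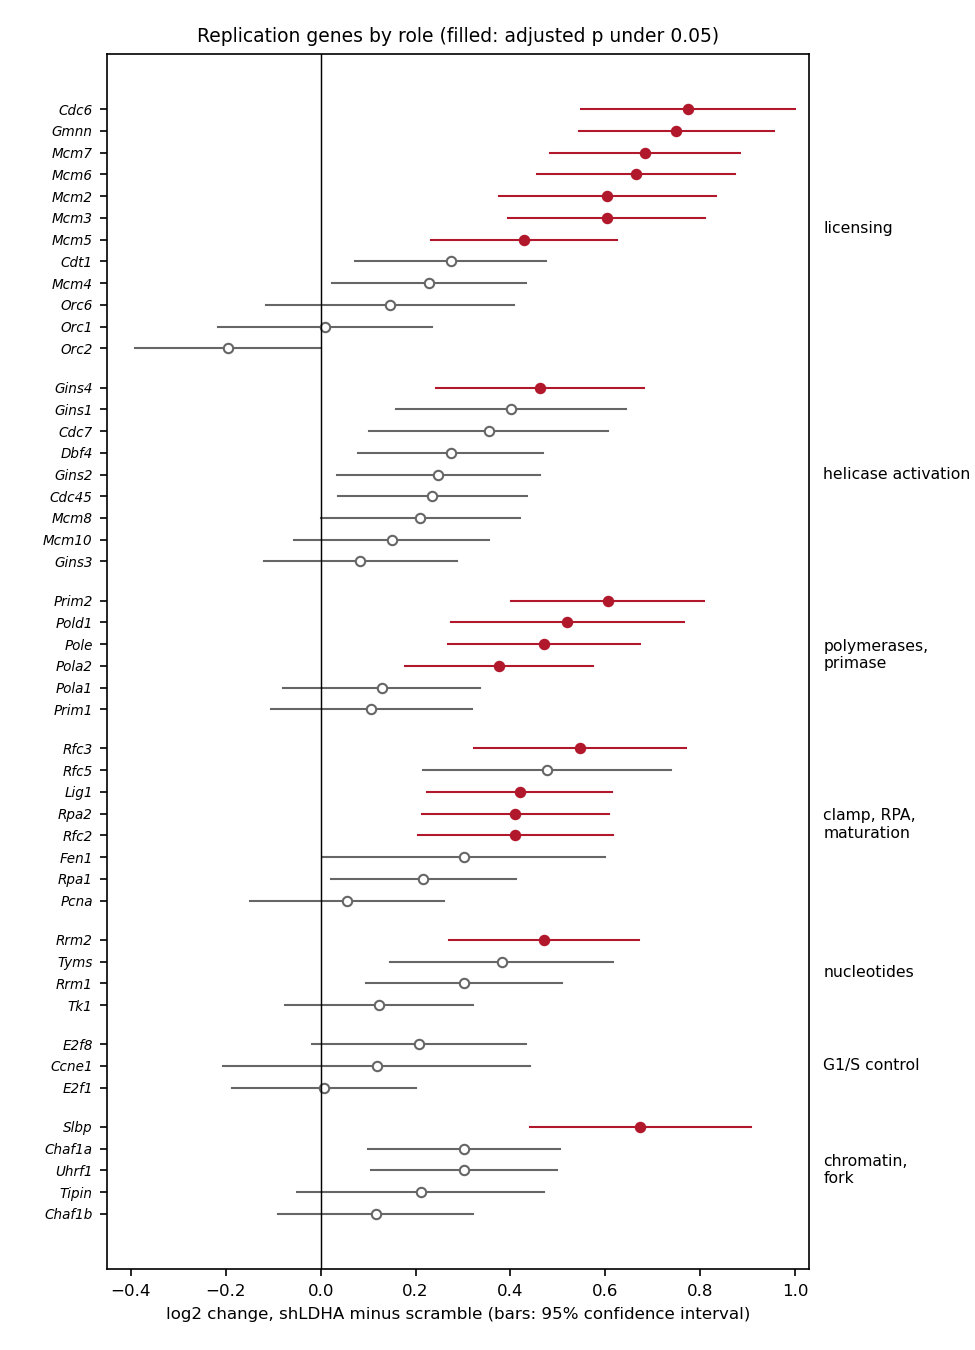
Log2 change of each of the 47 replication genes, shLDHA minus scramble (horizontal axis), grouped by role from top to bottom; points are estimates, bars are 95% confidence intervals and filled points passed at an adjusted p under 0.05. The 18 filled points lie between 0.38 and 0.77, 46 of 47 points lie above 0, and Orc2 is the one below.

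Licensing genes held the largest rises. Of 12, 7 rose, 0 fell and 5 did not pass, with a median log2 change of 0.52. Cdc6, the ATPase that brings the MCM ring to the origin, read 7.56 and 7.72 on the shLDHA arrays, against 6.85 and 6.88 on the scramble arrays. The groups do not overlap, and the gene rose 1.71-fold (log2 change 0.77, SE 0.09, limma adjusted p = 0.00814). Gmnn encodes geminin, the inhibitor of licensing. It read 5.58 and 5.66 in shLDHA and 4.84 and 4.91 in scramble, a rise of 1.68-fold (0.75, SE 0.09, adjusted p = 0.00662). The loading factor that geminin binds, Cdt1, read 9.30 and 9.35 in shLDHA and 9.02 and 9.08 in scramble. Its arrays did not overlap either, but its log2 change of 0.27 (95% confidence interval 0.07 to 0.47) did not pass. A loading factor and its inhibitor therefore both stood higher, with only the inhibitor past the threshold, and whether their changes differ was not tested.

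No gene of the origin recognition complex passed. Orc1, its largest subunit and an ATPase, read 5.05 and 4.91 on the shLDHA arrays and 5.02 and 4.92 on the scramble arrays, with overlapping groups and a log2 change of 0.01 (95% confidence interval -0.22 to 0.23). Orc2 read 8.68 and 8.64 in shLDHA, against 8.85 and 8.86 in scramble. It was the lone gene of the 47 with a negative estimate (-0.20, adjusted p = 0.232) and did not pass. Orc6, the smallest subunit, had a change of 0.15 with overlapping arrays. Its 95% confidence interval of -0.12 to 0.41 overlapped that of Mcm5 (0.23 to 0.62), the MCM gene with the smallest change among those that passed, and no difference between these genes was tested.

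Of the 6 subunit genes of the MCM ring, 5 rose. Mcm7 read 9.52 and 9.54 in shLDHA and 8.88 and 8.81 in scramble, 1.61-fold higher (log2 change 0.68, SE 0.08, adjusted p = 0.00834). Mcm6 read 9.78 and 9.67 in shLDHA, against 9.07 and 9.04 in scramble (0.67, SE 0.09, adjusted p = 0.0105). For both genes the groups lay farther apart than the 2 arrays of either group. Mcm2 had 8.63 and 8.44 in shLDHA and 7.92 and 7.94 in scramble (0.60, adjusted p = 0.0184). Mcm3 had 9.78 and 9.88 in shLDHA and 9.20 and 9.25 in scramble (0.60, adjusted p = 0.0146). Mcm5 showed the smallest change of those that passed, with 9.70 and 9.67 in shLDHA and 9.24 and 9.27 in scramble (0.43, adjusted p = 0.0326). The ring is built from 1 copy of each subunit, and the sixth gene, Mcm4, did not pass. It read 8.99 and 8.94 in shLDHA and 8.78 and 8.69 in scramble, with arrays that did not overlap and a change of 0.23 (95% confidence interval 0.02 to 0.43).

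**Figure D2:**
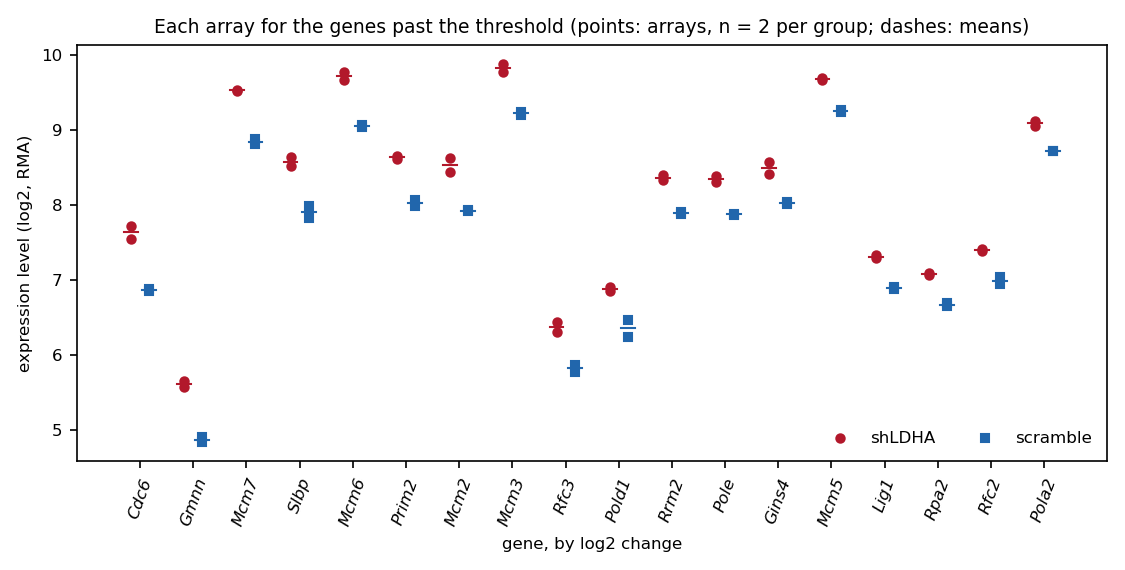
RMA log2 level (vertical axis) on each array for the 18 genes past the threshold, ordered by log2 change; red circles are shLDHA arrays, blue squares scramble arrays (n = 2 each) and dashes are group means. In every gene both shLDHA arrays lie above both scramble arrays, and the widest gap between scramble arrays is that of Pold1 at 6.25 and 6.47.

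The promoters of several of these genes are shown because the E2F element is known from many replication genes. Whether an E2F factor has a part in the changes was not tested. RefSeq sequences of build GRCm38.p6 were matched by symbol for 38 of the 47 genes, 13 of them among the 18 past the threshold. The table gives 45 promoters for them, each from 250 bases before to 50 bases after an annotated start. They were searched on both strands for the word TTCCCGC, the word TTGGCGC, the word TTGCCGC and the word TTCGCGC, core forms of the E2F element. Overlapping matches were counted separately, and a match can share bases with the CCAAT box. At least 1 match was present in 27 of the 45 promoters, or 60.0%, against 16.7% of 11026 promoters of tested genes at or above the median level and 9.57% of all 32851 promoters. Within the set, matches were present in 12 of 16 promoters of genes past the threshold and 15 of 29 promoters of the others. A match is a description of the sequence and does not show that a factor binds there. The 200 bases before the start follow for 4 licensing genes and Rpa2, which passed, and for Pola1 and Pcna, which did not. E2F words are in capitals, all are written 5′ to 3′ in the direction of the gene, and they lie at chr1:128359706-128359905, minus strand (Mcm6), chr8:75109309-75109508, plus strand (Mcm5), chr11:98907951-98908150, plus strand (Cdc6), chr5:138171884-138172083, minus strand (Mcm7), chr4:132768160-132768359, plus strand (Rpa2), chrX:93632156-93632355, minus strand (Pola1) and chr2:132253181-132253380, minus strand (Pcna).
Mcm6: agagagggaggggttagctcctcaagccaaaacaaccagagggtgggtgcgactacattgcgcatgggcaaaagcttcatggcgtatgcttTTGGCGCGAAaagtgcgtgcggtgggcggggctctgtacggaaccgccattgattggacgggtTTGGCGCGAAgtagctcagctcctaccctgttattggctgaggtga
Mcm5: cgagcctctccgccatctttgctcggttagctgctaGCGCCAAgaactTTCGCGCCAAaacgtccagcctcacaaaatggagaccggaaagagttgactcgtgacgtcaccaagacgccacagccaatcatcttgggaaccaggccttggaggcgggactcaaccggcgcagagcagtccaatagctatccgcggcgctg
Cdc6: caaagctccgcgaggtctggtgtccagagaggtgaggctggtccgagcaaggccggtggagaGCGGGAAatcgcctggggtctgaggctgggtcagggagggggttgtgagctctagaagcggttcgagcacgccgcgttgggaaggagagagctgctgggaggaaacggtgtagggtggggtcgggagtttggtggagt
Mcm7: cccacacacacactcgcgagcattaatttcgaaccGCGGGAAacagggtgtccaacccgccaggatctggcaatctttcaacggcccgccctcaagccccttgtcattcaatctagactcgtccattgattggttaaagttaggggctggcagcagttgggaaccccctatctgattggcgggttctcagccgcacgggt
Rpa2: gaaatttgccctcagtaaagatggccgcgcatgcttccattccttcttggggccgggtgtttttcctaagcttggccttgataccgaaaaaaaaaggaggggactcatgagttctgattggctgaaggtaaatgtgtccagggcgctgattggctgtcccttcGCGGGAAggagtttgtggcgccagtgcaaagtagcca
Pola1: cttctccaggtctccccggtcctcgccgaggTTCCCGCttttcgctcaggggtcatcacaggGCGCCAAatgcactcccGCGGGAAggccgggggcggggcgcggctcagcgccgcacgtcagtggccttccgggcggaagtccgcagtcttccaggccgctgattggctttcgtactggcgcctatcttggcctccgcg
Pcna: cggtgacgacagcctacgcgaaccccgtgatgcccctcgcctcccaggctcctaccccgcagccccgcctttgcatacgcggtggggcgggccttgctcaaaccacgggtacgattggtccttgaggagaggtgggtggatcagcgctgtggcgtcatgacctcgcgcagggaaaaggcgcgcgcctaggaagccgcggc

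Mcm6 carries 2 pairs of overlapping words in this window, with first bases 109, 106, 46 and 43 bases upstream of the start. In Mcm5 the words begin 164, 152 and 149 bases upstream, and in Cdc6 a single one begins 138 bases upstream. Such words were present in some genes that did not pass and absent from some that passed. Whether the share of promoters with a match differs between them was not tested. Pola1, at a log2 change of 0.13, has 3 in the window, beginning 169, 138 and 121 bases upstream. Pcna has none in its whole 300 bases, and Mcm2, Pola2 and Slbp, which rose, have none in theirs. The CCAAT box (CCAAT, both strands) was present in 60.0% of the 45 promoters and in 38.0% of those of genes at or above the median level. The cell cycle homology element (TTTGAA, or TTTAAA, or TTCGAA, both strands), which is known from genes of G2 and mitosis, was present in 35.6% and 20.9%.

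Another feature of position was examined after the values were seen. The search covered the 38 genes with a promoter sequence, and the rest of the 47 were left out. Of the 38, 9 have a tested neighbour on the opposite strand that is read away from them. Its annotated start lies within 1000 bases. Of these 9 neighbours, 1 passed and was higher, which is near the 6.32% of genes at or above the median level that did so. Ap4m1, an adaptor protein subunit gene that starts 138 bases from the upstream start of Mcm7, read 7.34 and 7.45 in shLDHA, against 6.72 and 6.85 in scramble (log2 change 0.61, SE 0.09, limma adjusted p = 0.0169). With 1 array left out, Ap4m1 passed only without scramble replicate 2 (adjusted p 0.0362, and 0.0623 to 0.0914 in the other 3 fits). Zswim9, which starts 105 bases from a start of Lig1, had a log2 change of 0.03 and did not pass, although Lig1 did. Positions of the probe sets are not used here, so it was not tested whether a probe set of either gene of a pair reads the other transcript.

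Genes grouped here under helicase activation, with Mcm8 counted among them, were mostly short of the threshold. Of 9, 1 rose, 0 fell and 8 did not pass (median log2 change 0.25). For all 9 both shLDHA arrays read above both scramble arrays. That order held for 26.2% of all genes and 34.3% of genes at or above the median level. Gins4 encodes the SLD5 subunit of the GINS complex. It read 8.42 and 8.58 in shLDHA and 8.05 and 8.02 in scramble, 1.38-fold higher (0.46, SE 0.09, limma adjusted p = 0.0365). Of the other GINS genes, which did not pass, Gins1 had a log2 change of 0.40 (adjusted p = 0.0732), Gins2 of 0.25 and Gins3 of 0.08. Gins3 was the smallest of the 9, at 7.70 and 7.74 in shLDHA and 7.68 and 7.59 in scramble. Cdc7, the kinase that phosphorylates MCM, stood at 0.35 (adjusted p = 0.112) and its activating subunit Dbf4 at 0.27 (adjusted p = 0.112). Cdc45, the third part of the active helicase, had a log2 change of 0.24 (95% confidence interval 0.04 to 0.43). Mcm10, which acts when the helicase starts, had one of 0.15, and Mcm8, an MCM relative outside the ring that works with Mcm9 in recombination, one of 0.21.

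Among polymerases and primase, 4 of 6 rose, 0 fell and 2 did not pass (median log2 change 0.42). Prim2, the large subunit of primase, read 8.62 and 8.66 in shLDHA, against 8.07 and 7.99 in scramble (0.60, SE 0.08, limma adjusted p = 0.0131). Pold1, the catalytic subunit of polymerase delta, which copies the lagging strand, read 6.86 and 6.91 in shLDHA, against 6.25 and 6.47 in scramble (0.52, adjusted p = 0.0365). Its scramble arrays lay farther apart than those of any other of the 18 genes that passed. Pole, the catalytic subunit of the leading-strand polymerase epsilon, read 8.39 and 8.31 in shLDHA, against 7.87 and 7.88 in scramble (0.47, adjusted p = 0.0268). Pola2, the accessory subunit of polymerase alpha, read 9.06 and 9.12 in shLDHA and 8.72 and 8.72 in scramble (0.38, adjusted p = 0.0493). The partners of Prim2 and Pola2 did not pass. The primase catalytic subunit gene Prim1 read 9.21 and 9.31 in shLDHA and 9.19 and 9.11 in scramble (0.11, 95% confidence interval -0.10 to 0.32), and the polymerase alpha catalytic subunit gene Pola1 had a log2 change of 0.13 (-0.08 to 0.34). The interval of Prim1 ended below the start of that of Prim2 (0.40 to 0.81), and the difference itself was not tested. Pole has a second, dim probe set with a log2 change of 0.00, and the mean of both gave 0.24 without passing.

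Of 8 genes of the clamp, its loader, single-strand binding and strand joining, 4 rose, 0 fell and 4 did not pass (median log2 change 0.41). Rfc3, a small subunit of the loader, read 6.30 and 6.44 in shLDHA and 5.78 and 5.88 in scramble (0.55, SE 0.09, limma adjusted p = 0.0235). Rfc2 read 7.39 and 7.42 in shLDHA and 6.95 and 7.05 in scramble (0.41, adjusted p = 0.0426). Rfc5 had a change of 0.48 that fell short of the threshold (adjusted p = 0.0559), with shLDHA arrays at 6.91 and 7.16. Rfc1, the large subunit and a gene outside the set, did not pass either (0.22, adjusted p = 0.249). Pcna, the sliding clamp and a common marker of proliferating cells, had the smallest change of the 8. It read 10.30 and 10.39 in shLDHA and 10.31 and 10.27 in scramble, with overlapping groups and a change of 0.06 (95% confidence interval -0.15 to 0.26). The difference of Pcna from the genes that passed was not tested.

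Rpa2, the middle subunit of the single-strand binding protein RPA, read 7.07 and 7.10 in shLDHA, against 6.70 and 6.65 in scramble (log2 change 0.41, limma adjusted p = 0.0380). Lig1, the ligase that joins Okazaki fragments, read 7.30 and 7.33 in shLDHA, against 6.91 and 6.89 in scramble (0.42, adjusted p = 0.0347). In both genes the arrays of a group lay within 0.05 of each other. Rpa1, the large RPA subunit, had a log2 change of 0.22 and Fen1, the flap nuclease, one of 0.30, and neither passed. A second and dimmer probe set of Rpa1 stood at -0.30 without passing, and the mean of both at -0.04. That of Fen1 stood at 0.19.

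Of 4 genes of deoxynucleotide supply, 1 rose, 0 fell and 3 did not pass (median log2 change 0.34). In all 4 both shLDHA arrays read above both scramble arrays, as in 34.3% of genes at or above the median level. Rrm2, the small and cell cycle regulated subunit of ribonucleotide reductase, read 8.33 and 8.41 in shLDHA and 7.89 and 7.91 in scramble (0.47, SE 0.08, limma adjusted p = 0.0261). A second probe set of Rrm2 was near the floor with a log2 change of 0.02, and the mean of both gave 0.25 without passing. Rrm1, the large subunit, did not pass at 0.30 (adjusted p = 0.101), with both shLDHA arrays at 9.55 and the scramble arrays at 9.19 and 9.30. Tyms, thymidylate synthase, had a log2 change of 0.38 (adjusted p = 0.0778). Its value is less certain, since the platform table names a pseudogene, Tyms-ps, that shares another probe set with it. Tk1, the thymidine kinase of the salvage route, had the smallest estimate, with levels of 8.36 and 8.37 in shLDHA and 8.21 and 8.28 in scramble (0.12, 95% confidence interval -0.08 to 0.32).

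The 3 measured genes of the set that regulate the G1 to S transition did not pass. Of such regulators outside the set, E2f4 and E2f5 passed and were lower. Tfdp2 and Ccna2 passed and were higher, and all are given below. E2f1, an activating E2F factor, read 6.31 and 6.30 in shLDHA and 6.31 and 6.28 in scramble, a change of 0.01 (95% confidence interval -0.19 to 0.20). Ccne1, cyclin E1, read 5.31 and 4.999 in shLDHA, against 5.15 and 4.92 in scramble, and its arrays overlapped (0.12, 95% confidence interval -0.20 to 0.44). E2f8, a repressing E2F factor whose own gene is an E2F target, read 8.39 and 8.40 in shLDHA and 8.10 and 8.28 in scramble (0.21, adjusted p = 0.273). The 3 genes had a median log2 change of 0.12.

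Of 5 genes that act on chromatin and at the fork, 1 rose, 0 fell and 4 did not pass (median log2 change 0.30). Slbp encodes the protein that binds the stem-loop at the end of histone messages and is needed for their processing. It read 8.52 and 8.65 in shLDHA, against 7.98 and 7.83 in scramble, 1.60-fold higher (0.67, SE 0.10, limma adjusted p = 0.0150). The histone chaperone subunit gene Chaf1a and Uhrf1, which recruits the maintenance DNA methyltransferase, each had a log2 change of 0.30, with adjusted p of 0.0963 and 0.0891. Tipin, a fork protection factor, stood at 0.21. Chaf1b, the partner of Chaf1a, had the smallest change of the 5, with 7.64 and 7.58 in shLDHA and 7.54 and 7.45 in scramble (0.12, 95% confidence interval -0.09 to 0.32).

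A further list of replication genes outside the set of 49 was examined. Like the set, it was chosen with earlier results of these data known, so it is no independent check. Of 62 listed, 59 were tested, and 16 rose, 2 fell and 41 did not pass (27.1% and 3.39%), with a median log2 change of 0.20. Over all genes 3.37% rose, and of genes at or above the median level 6.32% did. Dscc1, a subunit of an alternative clamp loader that acts in sister chromatid cohesion, read 5.68 and 5.59 in shLDHA, against 4.71 and 4.80 in scramble, and rose 1.84-fold (0.88, SE 0.09, limma adjusted p = 0.00444), more than any of the 47. Mtbp, which works with treslin in origin firing, read 10.00 and 10.05 in shLDHA and 9.28 and 9.23 in scramble (0.77, adjusted p = 0.00544). Pole2, the second subunit of polymerase epsilon, rose by 0.69 (adjusted p = 0.0144) and Timeless, the partner of Tipin, by 0.62 (adjusted p = 0.0161). Top2a, the topoisomerase that untangles replicated DNA, rose by 0.61, Fbxo5, an inhibitor of the anaphase-promoting complex, by 0.58 and Mcm9, the partner of Mcm8, by 0.56. The other 9 that rose were Pclaf (0.59), Dck (0.57), Tfdp2 (0.55), Hells (0.53), Topbp1 (0.49), Pold3 (0.49), Ccna2 (0.48), Dtymk (0.42) and Dnmt1 (0.38). Without shLDHA replicate 1 the counts were 4 higher and 0 lower, without shLDHA replicate 2 they were 2 and 0, without scramble replicate 1 they were 5 and 0, and without scramble replicate 2 they were 6 and 1. Dscc1 and Mtbp passed in all 4 of these fits.

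The 2 further genes that fell were E2f5 and E2f4, E2F factors that act mainly as repressors with pocket proteins. Their share of the 59, 3.39%, lay near that of all genes that passed and were lower (2.99%) and under that of genes at or above the median level (5.65%). E2f5 read 7.87 and 7.85 in shLDHA, against 8.48 and 8.38 in scramble (log2 change -0.57, SE 0.08, limma adjusted p = 0.0161). E2f4 read 9.62 and 9.64 in shLDHA, against 10.11 and 10.14 in scramble (-0.49, SE 0.08, adjusted p = 0.0216). Their arrays do not overlap. With 1 array left out, E2f5 passed only without scramble replicate 2 and E2f4 in none of the 4 fits, with adjusted p of 0.0427 to 0.0842 and 0.0755 to 0.0958. The pocket protein genes Rb1 (-0.10), Rbl1 (0.28) and Rbl2 (0.20) did not pass. Other E2F genes did not pass either, with E2f2 at 0.16, E2f3 at 0.00, E2f6 at 0.31 and E2f7 at 0.22.

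Genes of the replication-dependent histone clusters were found by their older symbols in the RefSeq table, after their current symbols had been seen not to match. Of 66 such genes, 27 were among those tested. Of the 27, 9 rose (33.3%), 0 fell and 18 did not pass, with a median log2 change of 0.23. Over all genes 3.37% rose, and 6.32% of those at or above the median level. A large part of the 27 read below 4.19 in both groups, among them H4c8, which rose (means of 3.42 in shLDHA and 2.89 in scramble). The share among genes at or above the median level is therefore not matched to this list in level. The count of rises was 2 without shLDHA replicate 1, 1 without shLDHA replicate 2, 4 without scramble replicate 1 and 5 without scramble replicate 2. Many of these genes are near-identical copies, so a probe set named for 1 of them may read others, and the counts are uncertain for that reason.

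**Figure D3:**
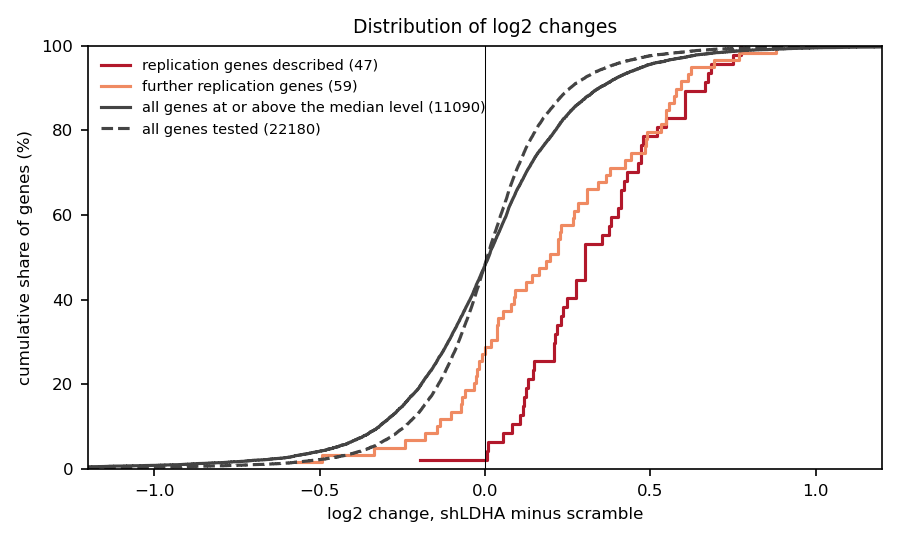
Cumulative share of genes (vertical axis, percent) against log2 change, shLDHA minus scramble (horizontal axis), for the 47 replication genes, 59 further replication genes, 11090 genes at or above the median level and all 22180 genes. The curve of the 47 lies to the right of that of all genes, with medians of 0.30 and 0.01, and that of the further genes lies between them for most of its length.

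Of the 12 alternative settings, 7 change the estimates themselves and the others change the test alone. In all 7 the estimate stayed above 0 for 42 of the 47 genes, the exceptions being Orc1, Orc2, Rpa1, Ccne1 and E2f1. The number of the 47 that passed was 3 without shLDHA replicate 1, 4 without shLDHA replicate 2, 6 without scramble replicate 1 and 6 without scramble replicate 2, against 18 with all arrays. Counts over all genes were lower as well, between 370 and 636 against 1410, and a fit of 3 arrays has 1 residual degree of freedom in place of 2. Cdc6 and Gmnn passed in each of these 4 fits, and in all 12 settings. Mcm6 and Mcm7 passed in 3 of the 4. Mcm2, Mcm3, Prim2, Pold1 and Slbp passed in 1, and the remaining 9 in none.

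**Figure D4:**
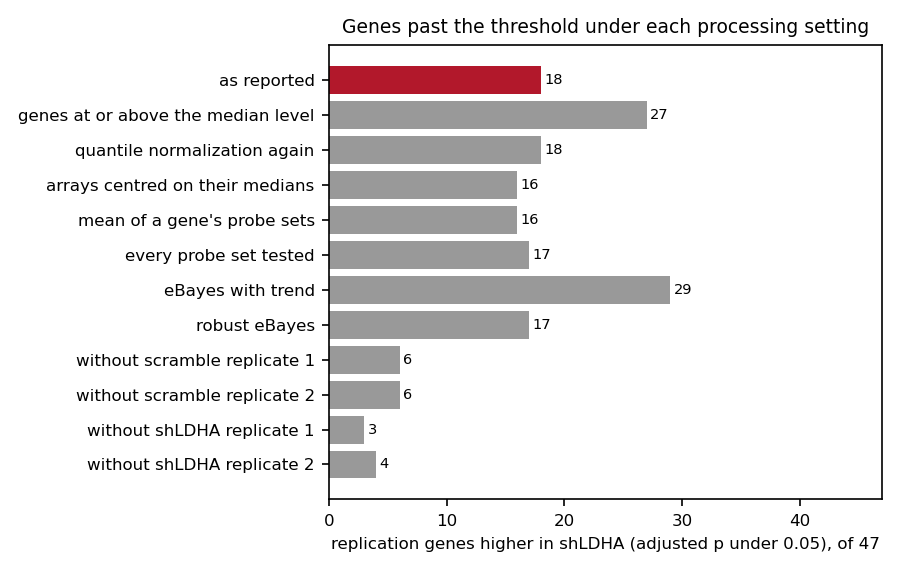
Number of the 47 replication genes that passed at an adjusted p under 0.05 and were higher in shLDHA (horizontal axis), as reported (red) and under other processing settings (grey). A fit with the replicate number as a block also keeps all 4 arrays, and its count was 9. The count is 18 as reported, 16 to 29 in the other settings drawn here that keep all 4 arrays (the replicate block is not drawn), and 3 to 6 when 1 array is left out.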

How the data were processed

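Expression was measured on 4 whole-transcript arrays. The deposited values are on the log2 scale. Per the submitters' processing notes the authors used RMA, with R 3.4.0. The version of the array annotation is not stated in the labels. The values ran from 1.23 to 12.91, and 0 columns were left out. Of 41345 probe sets, 23521 had 1 gene symbol in the platform table, 1814 several and 16010 none; only the first kind was used. For the 1082 genes with several probe sets, the brightest was kept, which left 22180 genes, with no filter on dim ones.

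The 2 groups were set against each other in limma 3.58.1 under R 4.3.3 (lmFit, eBayes, no covariate, two-sided), with 2 residual and 4.52 prior degrees of freedom and a median SE of 0.09. Confidence intervals are at 95% and come from this fit. The number of arrays limits the precision. A gene level was called at or above the median where its brighter group mean reached 4.10.

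The set, its role groups and the lists were chosen with earlier results of these data known. Values of single arrays are given for genes past the threshold and for the largest and smallest change of each role group. Outside that rule they are also given for Orc1, Cdt1, Mcm4, Rrm1, Ccne1 and, in shLDHA alone, Rfc5. Of further genes, those that passed and up to 6 in each direction could be named; other genes named were chosen after their values were seen. Alternatives were a block for the replicate number, a filter at the median level, quantile normalization again, centring on array medians, the mean of a gene's probe sets, every probe set with 1 symbol, eBayes with a trend or robust, each array left out, and a threshold of 0.1. The code was tested on simulated data. Promoter sequences are from RefSeq, build GRCm38.p6. Figures were drawn with matplotlib 3.10.9.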

Additional observations from a re-analysis of the deposited data

How the results depend on the processing

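The median log2 change of the 47 replication genes, 0.30 as reported, was 0.32 after quantile normalization was applied again, 0.27 with arrays centred on their medians and 0.27 with the mean of a gene's probe sets, and ran from 0.29 to 0.33 when 1 array was left out. Their count of rises, 18 as reported, was 29 with an eBayes trend and 3 to 6 with 1 array left out. No replication gene of the 47 passed and was lower in any setting. With the replicate number of the titles as a block, 9 of the 47 rose, 838 of all genes passed and 1 further replication gene fell. The block takes up a residual degree of freedom. The labels do not say whether equal numbers mark paired samples. The deviations of replicate 1 from its group mean correlated across genes at -0.03 between the groups. With 2 arrays per group this cannot exclude a pairing, and the reported fit has no block. Over all genes 1410 passed as reported, 2836 with the filter at the median level, 2806 with the trend, 2391 at a threshold of 0.1 and 370 to 636 with 1 array left out. Of the further replication genes, 16 rose and 2 fell as reported, 4 fell with the filter, and with 1 array left out 2 to 6 rose and 0 to 1 fell. Rises among the histone genes, 9 as reported, were 1 to 5 with 1 array left out. The alternatives for histone genes, Ldha, Ap4m1 and single further genes were chosen after seeing the data. The estimates of 4 genes that did not pass changed sign: Orc1 was -0.038 with quantile normalization again, -0.024 with centred arrays and -0.062 to 0.079 with 1 array left out, E2f1 was -0.010, -0.026 and -0.0088 to 0.022, Ccne1 was -0.036 to 0.27 with 1 array left out, and Rpa1 was -0.041 with the mean of its probe sets. The filter and the trend change how many genes share the adjustment or how the spread is estimated, and a fit of 3 arrays has 1 residual degree of freedom; beyond that the cause was not tested. Signal near the floor limits the second probe sets of Pole, Rrm2 and Rpa1.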
